A study of Arabidopsis thaliana with 8 samples.

Results

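In germinating Arabidopsis thaliana seedlings, 42 of 22246 probe sets had a higher level on the plant hormone abscisic acid (ABA) in wild type and about the same level on ABA in both ABA-hypersensitive mutants, ahg1-1 and ahg3-1, as in wild type. They were chosen from the measured values. Between arrays of the same replicate number, wild type with ABA had to exceed wild type without ABA by at least 1 on the log2 scale (a doubling is 1) in both numbers. Each mutant on ABA had to lie within 0.3 of wild type on ABA in both numbers, which makes 4 mutant differences per probe set. All 3 comparisons with wild type thus entered the choice, so the values below describe the 42 probe sets and test nothing about them.

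The 8 arrays formed 4 groups of 2: ahg1-1 on 0.5 uM ABA, ahg3-1 on 0.5 uM ABA, Columbia wild type on 0.5 uM ABA, and Columbia wild type without ABA. All seeds were held at 4 °C for 4 days, then germinated for 2 days at 23 °C on MS plates holding 2% sucrose, in days of 16 h light and nights of 8 h, and total RNA was taken from the seedlings. No array of either mutant without ABA was analysed, so the ABA response of a mutant could not be set against its own untreated level. The labels do not say whether both arrays of each group stem from independent cultures, so errors and p-values may measure technical spread only. Each value is an RMA log2 expression level of 1 probe set on 1 array, and levels of different probe sets are not comparable with each other.

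ABA holds seeds in the dry-seed programme and delays germination. In the core pathway ABA binds receptors of the PYR/PYL/RCAR family, which then inhibit PP2C protein phosphatases. SnRK2 protein kinases are released from those phosphatases and act on bZIP transcription factors of ABA-responsive genes. The ahg1 and ahg3 mutations lie in related but separate PP2C genes, and such phosphatases restrain ABA signalling, so the design asks which expression levels on ABA differ when 1 of them is impaired.

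Of the 42 probe sets, 22 have 1 annotated gene, 1 has several genes and 19 have no gene in the annotation used. Of the 22 genes, 16 carry only a locus code. The 6 with a symbol are the aspartic proteinase gene APA1, the serine carboxypeptidase-like gene scpl35, the alpha-expansin genes EXPA15 and EXPA4, the methionine gamma-lyase gene MGL and the glucosyltransferase gene UGT84A3. A suffix of _s_at, which marks probes that can match several transcripts, stood on 3 of the 42 and on 3.95% of all probe sets.

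Across the 42, the mean ABA difference in wild type ran from 1.02 to 7.05 with a median of 1.57 (log2). It was under 2 in 33 probe sets, from 2 to under 3 in 6 and at least 3 in 3. In wild type on ABA their mean levels ran from 5.72 to 13.41 with a median of 9.33, and without ABA from 4.14 to 11.09 with a median of 7.41.

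**Figure D1:**
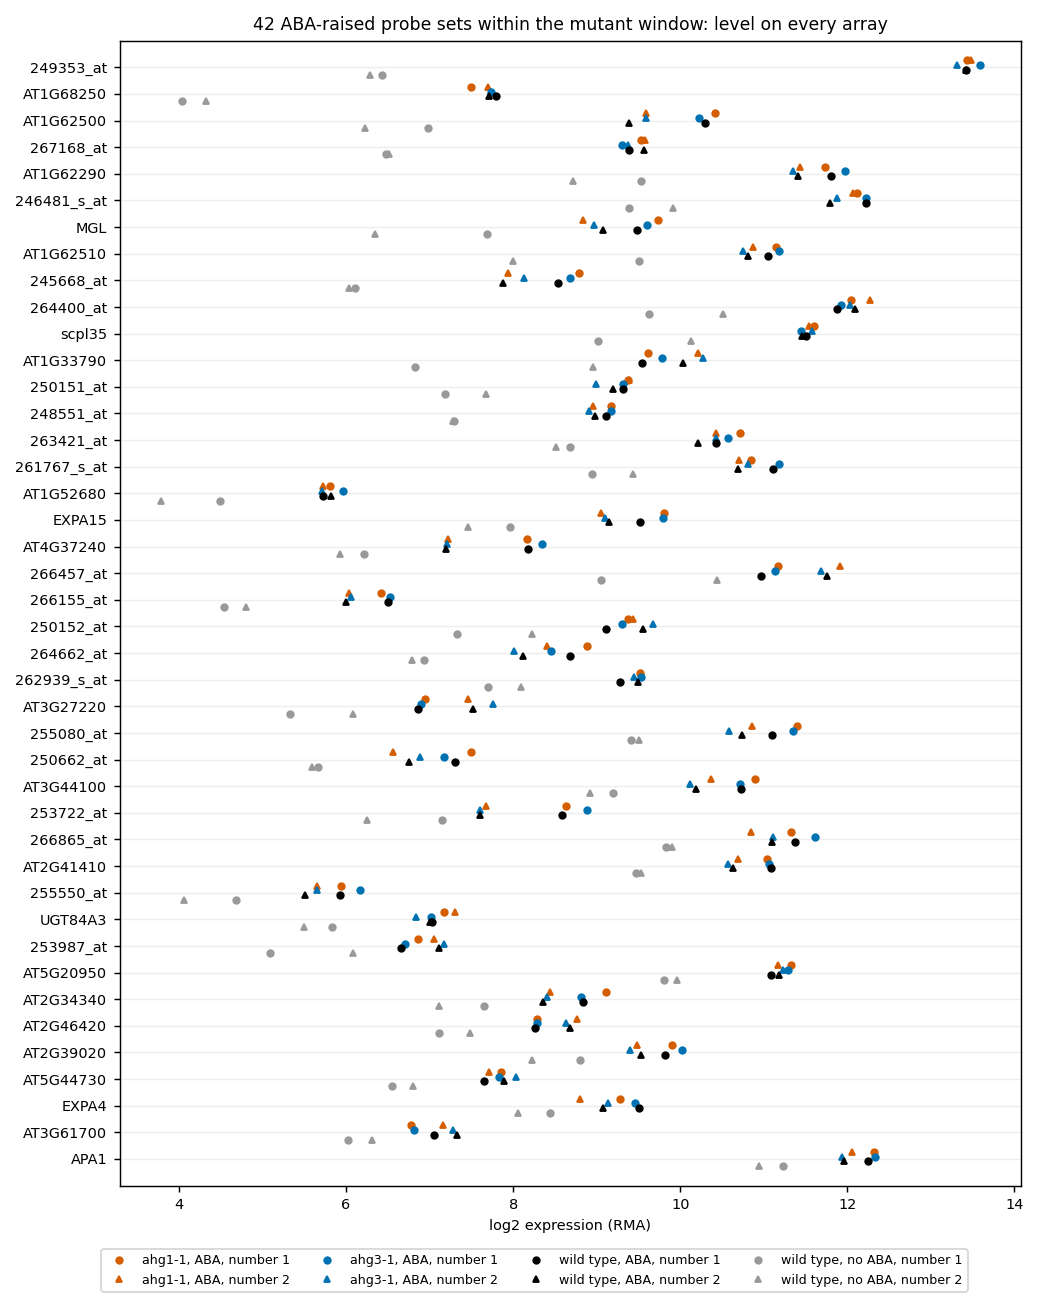
Log2 expression (RMA) of each of the 42 probe sets on each of the 8 arrays, ordered by the mean ABA difference in wild type, with circles for replicate number 1 and triangles for number 2. In every row the 6 ABA arrays of ahg1-1, ahg3-1 and wild type lie to the right of both arrays without ABA.

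In all 42 probe sets the 6 ABA arrays of the 3 genotypes lay above both wild-type arrays without ABA. This separation held for 13.8% of all probe sets, and the choice of the 42 nearly fixes it. The rule asked wild type on ABA to exceed its untreated level by 1 and held each mutant close to wild type on ABA. The choice therefore largely sets the mutant counts and medians that follow, and they test nothing further. In both numbers, ahg1-1 on ABA stood at least 1 above wild type without ABA in 36 of 42, and ahg3-1 in 40 of 42. Within number 1 the median of these differences was 1.86 for ahg1-1, 1.83 for ahg3-1 and 1.67 for wild type on ABA. Within number 2 it was 1.43, 1.34 and 1.33 in the same order. All 3 genotypes were set against the same untreated arrays.

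Among the genes with a symbol, those matched to proteolysis keywords are described first, which is not a ranking by ABA difference. APA1 encodes aspartic proteinase A1, an acid protease of a class that acts on stored proteins in plant vacuoles. Its level was 12.31 and 12.06 in ahg1-1, 12.33 and 11.93 in ahg3-1, 12.25 and 11.96 in wild type on ABA, and 11.23 and 10.95 in wild type without ABA (numbers 1 and 2). Both untreated arrays were lower than all 6 ABA arrays, and the 3 genotypes on ABA were interleaved. The ABA difference was 1.02 in both numbers (limma, 1.02 ± 0.24 SE, adjusted p = 0.12), which is close to the limit of the rule.

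The gene scpl35 encodes a member of the serine carboxypeptidase-like family, which holds peptidases and related acyltransferases. It stood at 11.60 and 11.54 in ahg1-1, 11.44 and 11.58 in ahg3-1, 11.50 and 11.46 in wild type on ABA, and 9.02 and 10.12 in wild type without ABA. The 6 ABA arrays spanned only 0.15, while the 2 untreated arrays were 1.11 apart. The ABA difference was therefore 2.48 within number 1 and 1.34 within number 2 (limma, 1.91 ± 0.35 SE, adjusted p = 0.063). Of 29 probe sets named for this family, 2 met the ABA limit, scpl35 by choice, against 1.81% of all probe sets. The other, scpl20, differed by 1.15 and 1.31 with ABA, and stood 0.35 and 0.58 above wild type in ahg1-1 and 0.51 and 0.06 above it in ahg3-1.

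Expansins loosen plant cell walls during growth. EXPA15 stood at 9.81 and 9.05 in ahg1-1, 9.79 and 9.09 in ahg3-1, 9.52 and 9.15 in wild type on ABA, and 7.96 and 7.46 in wild type without ABA. Its 4 mutant differences were 0.29 and -0.10 for ahg1-1 and 0.27 and -0.05 for ahg3-1, so both mutants lay above wild type within number 1 and below it within number 2. EXPA4 stood at 9.28 and 8.80 in ahg1-1, 9.45 and 9.13 in ahg3-1, 9.50 and 9.07 in wild type on ABA, and 8.45 and 8.06 in wild type without ABA.

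The ABA difference was 1.62 ± 0.37 (SE) for EXPA15 and 1.03 ± 0.28 for EXPA4 (limma, adjusted p = 0.11 and 0.17). Of 10 probe sets named as alpha-expansins, a family looked up after the values were seen, 4 met the ABA limit and 2 of these also met the mutant limits. Those 2, EXPA15 and EXPA4, prompted the lookup and met the ABA limit by choice. Over all probe sets 1.81% met the ABA limit. The remaining pair, EXPA9 and EXPA20, was kept out mainly by ahg1-1 within number 2, where they lay 0.74 and 0.57 below wild type. Of the other 6 alpha-expansin probe sets, 2 were higher with ABA in both numbers by less than the limit, 1 was lower in both (EXPA8, -2.81 and -1.34) and 3 differed in sign between numbers.

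MGL encodes methionine gamma-lyase, which breaks methionine down to methanethiol, ammonia and an oxo acid used for isoleucine. It stood at 9.73 and 8.83 in ahg1-1, 9.60 and 8.96 in ahg3-1, 9.49 and 9.07 in wild type on ABA, and 7.68 and 6.34 in wild type without ABA. Every group had its lower value in number 2. The ABA difference was 1.81 within number 1 and 2.73 within number 2 (limma, 2.27 ± 0.52 SE, adjusted p = 0.11).

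UGT84A3 encodes an enzyme that attaches glucose to hydroxycinnamic acids. It stood at 7.18 and 7.30 in ahg1-1, 7.02 and 6.83 in ahg3-1, 7.02 and 7.01 in wild type on ABA, and 5.84 and 5.50 in wild type without ABA. Its ABA difference passed the test (limma, 1.35 ± 0.20 SE, adjusted p = 0.034), but in none of the 8 fits that left out 1 array. Those of the other 5 genes with a symbol did not pass in the fit without the replicate number. With the number as a block all 6 passed, at adjusted p-values (limma) of 0.0052 for APA1, 0.0067 for scpl35, 0.0014 for EXPA15, 0.0049 for EXPA4, 0.0014 for MGL and 0.0031 for UGT84A3. The rule used the same differences between same-numbered arrays, so passing under the block was nearly fixed by the choice. All 42 probe sets were called higher under it, as were 6.1% of all probe sets. Of 47 probe sets named for the UGT family, 2 met the ABA limit, UGT84A3 by choice, against 1.81% of all probe sets. The other, UGT73B4, lay above wild type on ABA within number 1 by 0.90 in ahg1-1 and 0.84 in ahg3-1, and within number 2 by 0.45 in ahg1-1, against -0.01 in ahg3-1.

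Among the 16 genes with a locus code only, AT1G68250 had the largest ABA difference. Its level was 7.50 and 7.70 in ahg1-1, 7.73 and 7.73 in ahg3-1, 7.79 and 7.71 in wild type on ABA, and 4.03 and 4.32 in wild type without ABA, where it lay among dim probe sets. The 6 ABA arrays spanned 0.29, and the difference of 3.58 ± 0.19 (SE) passed the test (limma, adjusted p = 0.0014). It lay between 3.43 and 3.72 in the 8 fits without 1 array. The rule used this contrast, here and for the probe sets below, so passing it describes the choice. Of all probe sets, 0.692% were called higher in the full fit. Its ahg1-1 difference within number 1, -0.29, was among the values nearest to the mutant limit.

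AT1G62500 and AT1G62510 are direct neighbours on chromosome 1 in the TAIR10.1 gene table, with 0 protein-coding genes between them, and AT1G62290 lies 22 protein-coding genes away from AT1G62500. AT1G62500 stood at 10.41 and 9.59 in ahg1-1, 10.22 and 9.59 in ahg3-1, 10.29 and 9.38 in wild type on ABA, and 6.98 and 6.23 in wild type without ABA. AT1G62510 stood at 11.14 and 10.87 in ahg1-1, 11.18 and 10.76 in ahg3-1, 11.05 and 10.82 in wild type on ABA, and 9.51 and 7.998 in wild type without ABA. Both neighbours were lower in number 2 than in number 1 in every group.

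The ABA difference of AT1G62500 was 3.23 ± 0.46 and passed (limma, adjusted p = 0.031), while that of AT1G62510 was 2.18 ± 0.47 and did not (limma, adjusted p = 0.100). AT1G62290 stood at 11.73 and 11.43 in ahg1-1, 11.97 and 11.35 in ahg3-1, 11.80 and 11.40 in wild type on ABA, and 9.53 and 8.71 in wild type without ABA, a difference of 2.48 ± 0.36 that passed (limma, adjusted p = 0.031). Neither AT1G62500 nor AT1G62290 passed in any fit without 1 array. By chromosome, 8 of the 22 named genes lie on chromosome 1 and 6 on chromosome 2, which hold 25.7% and 15.7% of all probe sets with 1 gene. A further 3 lie on chromosome 3, 2 on chromosome 4 and 3 on chromosome 5, which hold 20.5%, 14.3% and 22.8%.

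Among the 22 named genes, the largest mutant difference in size was smallest for AT2G41410, AT2G46420 and APA1, a value that the rule limited. The unnamed probe sets 248551_at (0.076) and 266155_at (0.080) were similarly low. No mutant difference of AT2G41410 exceeded 0.067 in size: it stood at 11.03 and 10.69 in ahg1-1, 11.06 and 10.57 in ahg3-1, 11.09 and 10.63 in wild type on ABA, and 9.47 and 9.53 in wild type without ABA. The largest mutant difference in size was 0.091 for AT2G46420 and 0.094 for APA1. AT1G33790 varied more between numbers: its 2 untreated arrays stood 2.13 apart, at 6.83 and 8.95, so the ABA difference was 2.71 within number 1 and 1.08 within number 2.

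The ABA differences of the other locus-coded genes lay between 1.02 and 1.63 on average. AT1G52680 (1.63 ± 0.27, limma, adjusted p = 0.047) and AT5G20950 (1.25 ± 0.18, limma, adjusted p = 0.032) passed the test, each in 0 of the 8 fits without 1 array. AT1G52680 was dim, at 4.50 and 3.78 without ABA. AT4G37240, AT3G27220, AT3G44100, AT2G41410, AT2G34340, AT2G46420, AT2G39020, AT5G44730 and AT3G61700 did not pass. AT2G39020, listed with the synonym NATA2, had a difference of 1.01 within number 1 and 1.31 within number 2.

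Among the 20 probe sets that could not be named, 249353_at stood apart. Its level was 13.43 and 13.48 in ahg1-1, 13.58 and 13.31 in ahg3-1, 13.41 and 13.42 in wild type on ABA, and 6.43 and 6.29 in wild type without ABA. The ABA difference was 7.05 ± 0.19 (SE) (limma, adjusted p = 0.00012). On ABA it lay near the top of the scale, within 0.032 of the highest value of 1 array, and array maxima lay between 13.49 and 13.87. Whether the upper end of the scale limited its levels on ABA, and so the size of the ABA difference as well as the mutant differences, was not tested.

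The probe set 267168_at, also without a gene, stood at 9.53 and 9.57 in ahg1-1, 9.30 and 9.38 in ahg3-1, 9.38 and 9.56 in wild type on ABA, and 6.48 and 6.52 in wild type without ABA. Replicates differed by less than 0.2 in each of its 4 groups, and its ABA difference of 2.97 ± 0.18 passed (limma, adjusted p = 0.0017). Together with 249353_at and AT1G68250 it made up the 3 probe sets that passed in all 8 fits without 1 array. The other 18 had mean ABA differences between 1.30 and 2.36. Of the 42, 4 averaged under 5 without ABA, where values near the lower end of the scale make the size of a difference uncertain.

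The ABA comparison in wild type called 15 of the 42 probe sets higher, at adjusted p-values between 0.00012 and 0.047, against 0.692% of all 22246 probe sets called higher. The contrast was part of the rule, so the share says nothing further about these probe sets. The 27 others had adjusted p-values between 0.055 and 0.41. With the replicate number as a term in the fit all 42 were called higher, as were 6.1% of all probe sets. Leaving out 1 array at a time lowered the count of 15. It was 5 when either ahg1-1 array was dropped (0.346% of all probe sets called higher) and 5 when either ahg3-1 array was (0.36%). It was 6 when number 1 of wild type on ABA was dropped (0.692%, the share of the full fit) and 3 when number 2 was (0.283%). It was 4 when number 1 of untreated wild type was dropped (0.157%) and 7 when number 2 was (0.288%). Seedlings with and without ABA had both germinated for 2 days, and ABA slows germination. Developmental stage and gene response therefore cannot be told apart here, nor can more cells of a type and more RNA per cell.

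**Figure D2:**
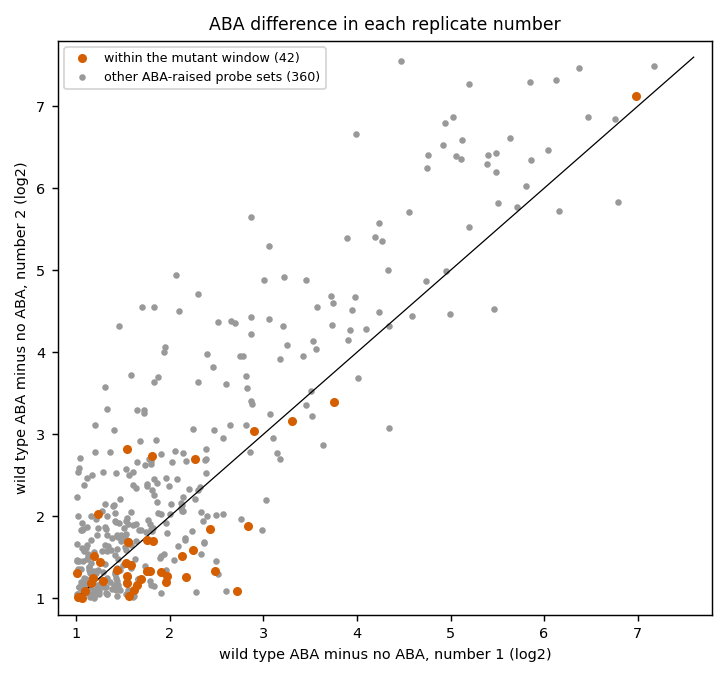
Wild type with ABA minus wild type without ABA (log2) within replicate number 1 (horizontal) and number 2 (vertical) for all 402 ABA-raised probe sets; the line marks equality. The 42 within the mutant window lie below the line in 29 cases, against 108 of the 360 others.

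By the same ABA limit 402 probe sets, 1.81% of all, were ABA-raised, and the 42 were 10.4% of them. The other 360 had larger ABA differences, with a median of 1.88 against 1.57 in the 42. The share of ABA-raised probe sets that also met the mutant limits was 33 of 227 where the mean ABA difference was below 2, 6 of 80 from 2 to below 3, 2 of 38 from 3 to below 4, and 1 of 57 at 4 or more. The 1 probe set in the last class was 249353_at near the top of the scale. These shares are descriptions: the same wild-type arrays on ABA enter the ABA difference with a plus sign and each mutant difference with a minus sign, so the 2 quantities are not independent.

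Over all probe sets, 8446 or 38.0% met the mutant limits. Among the 402 ABA-raised probe sets those outside lay mainly above: within number 1, 314 exceeded 0.3 in ahg1-1 and 297 in ahg3-1, while 4 and 2 lay below -0.3. Within number 2, 201 exceeded 0.3 in ahg1-1 but 48 in ahg3-1, while 37 and 6 lay below -0.3. For both mutants together, 61 of 402 met the limits within number 1 and 155 within number 2, against 10627 and 16262 of all 22246.

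**Figure D3:**
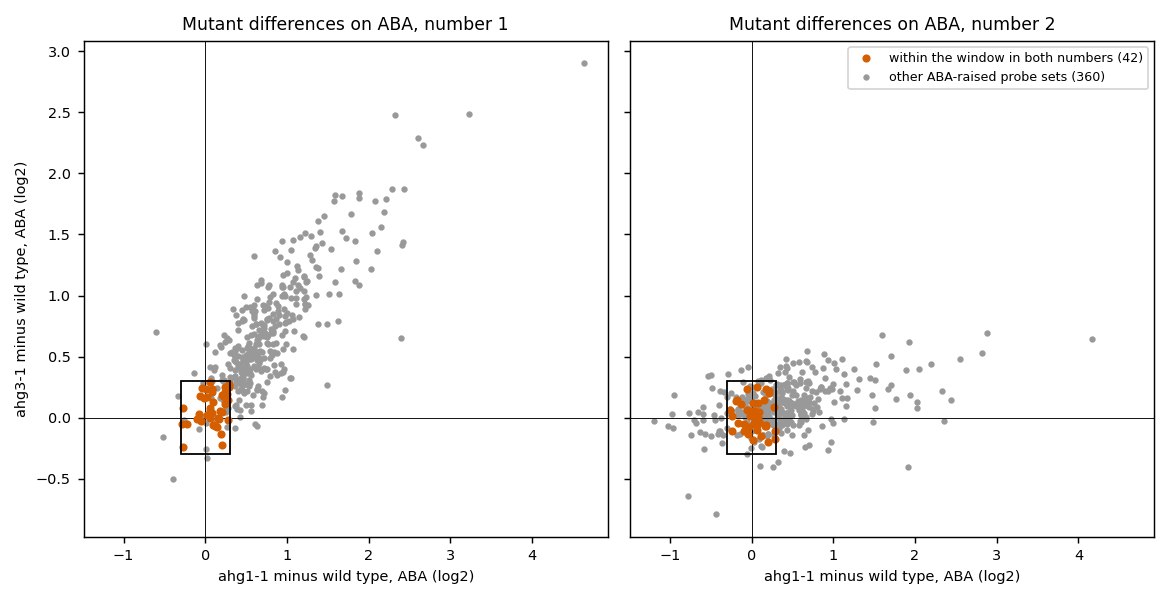
Difference from wild type on ABA (log2) in ahg1-1 (horizontal) and ahg3-1 (vertical) within replicate number 1 (left) and number 2 (right) for the 402 ABA-raised probe sets; the box marks the limits of 0.3. The cloud of other probe sets extends up and to the right within number 1 and mainly to the right within number 2.

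The 2 arrays of wild type on ABA differed from each other in the ABA-raised probe sets. In the 360 other ABA-raised probe sets, number 2 minus number 1 had a median of 0.31 in ahg1-1, 0.07 in ahg3-1, 0.65 in wild type on ABA and 0.10 in wild type without ABA. In the 42 the medians were -0.24 in ahg1-1, -0.32 in ahg3-1, -0.26 in wild type on ABA and 0.01 in wild type without ABA. The ABA difference was larger within number 1 than within number 2 in 29 of the 42, in 108 of the 360 and in 10095 of all 22246. The part of this difference in the choice of the 42 was not tested.

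The 4 mutant differences of each probe set lay inside the limits by choice. Their medians over the 42 were 0.09 and 0.05 for ahg1-1 and 0.08 and -0.01 for ahg3-1 (numbers 1 and 2), against 0.01 and 0.03 for ahg1-1 and 0.01 and 0.003 for ahg3-1 over all probe sets. In ahg1-1, 21 of 42 were above wild type in both numbers and 4 below it in both. In ahg3-1, 14 were above in both and 7 below in both. Number by number, 32 and 27 of the 42 were above wild type in ahg1-1, and 28 and 21 in ahg3-1. For the 360 other ABA-raised probe sets the counts were 351 and 285, then 348 and 266. For all 22246 they were 11252 and 12350, then 11345 and 11305. Both mutants were set against the same 2 wild-type arrays on ABA, so these counts are not independent. Across both mutants and numbers, 5 probe sets were above wild type throughout, and 1, AT3G61700, was below it throughout, at -0.28 and -0.17 in ahg1-1 and -0.24 and -0.04 in ahg3-1.

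**Figure D4:**
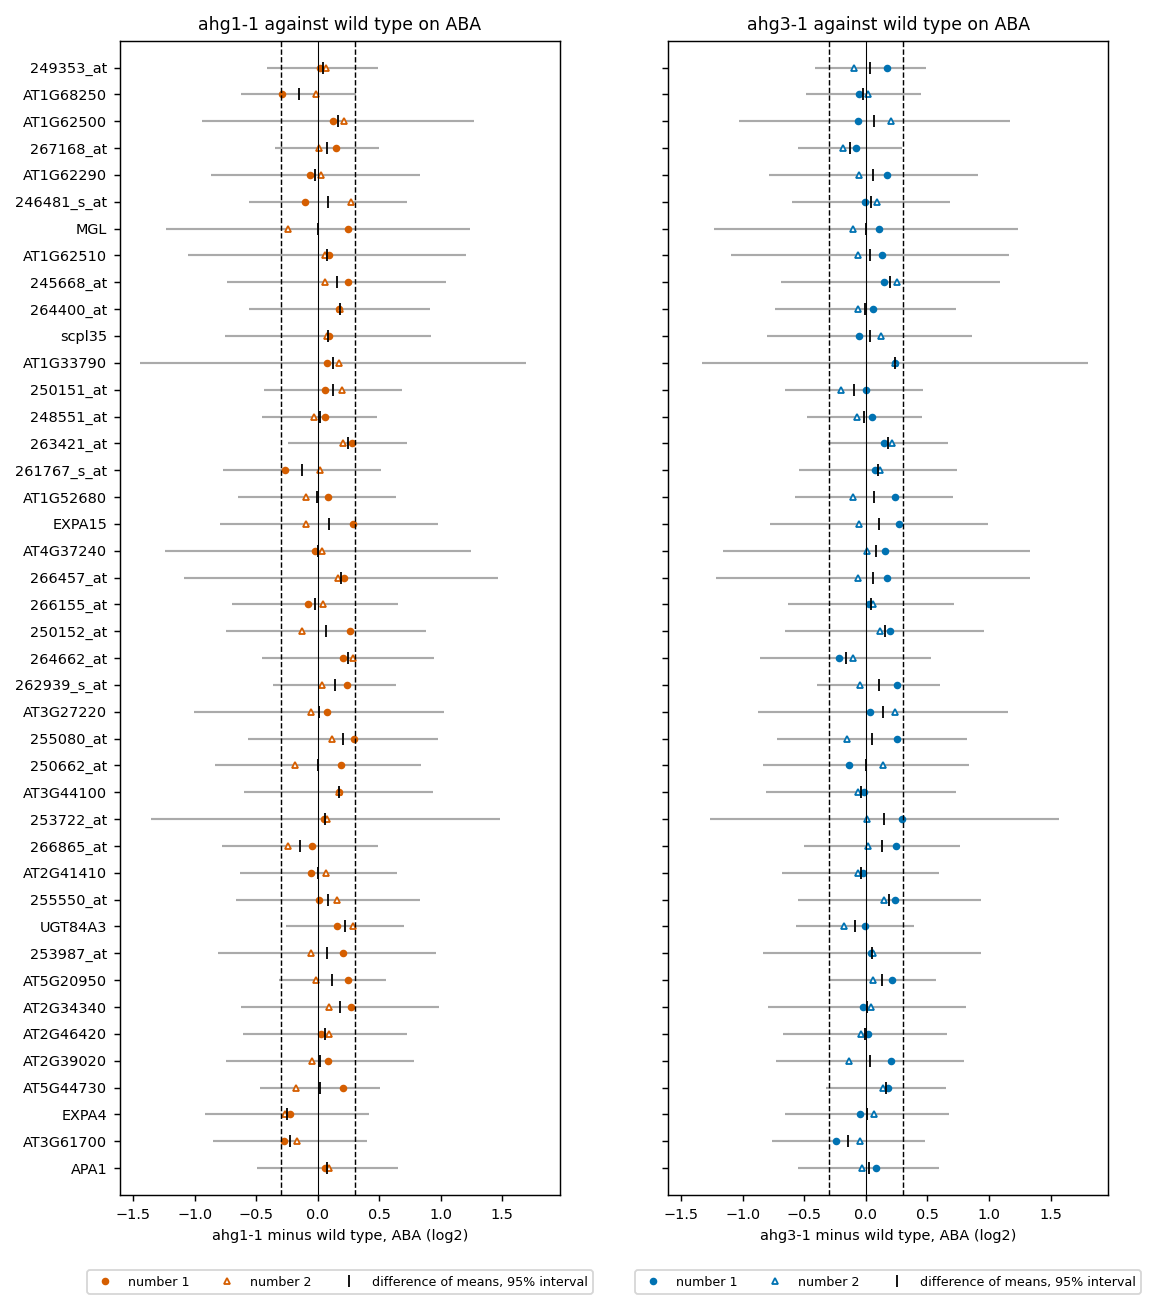
Difference from wild type on ABA (log2) in ahg1-1 (left) and ahg3-1 (right) for the 42 probe sets, within each replicate number (points) and between group means (ticks) with limma's 95% interval (grey bars); dashed lines mark the limits of 0.3. All points lie between the dashed lines, and all 42 intervals reach past at least 1 of them in each panel.

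A difference within 0.3 on each pair of arrays does not show that a mutation had no effect. The 95% interval of the difference of means (limma) extended 0.72 to either side at the median of the 42, from 0.42 for 267168_at to 1.57 for AT1G33790. For ahg1-1 all 42 intervals reached past 0.3 on at least 1 side, and 9 reached past 1, so that in those 9 even a 2-fold difference lay inside the interval. For ahg3-1 the counts were again 42 and 9. With the replicate number as a block, 1 interval reached past 1 in each mutant, that of AT1G33790. The intervals of all 42 held 0 in both mutants.

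By limma 0 of the 42 passed in ahg1-1, in ahg3-1 or between the mutants, as did 0.0% of all probe sets in each of these comparisons, and 0 of the 42 had an unadjusted p under 0.05 in any of them. Of all 22246 probe sets, 326 had one in ahg1-1, 18 in ahg3-1 and 92 between the mutants. With the replicate number as a term, 0 of the 42 passed again, against 0.0135% of all probe sets in ahg1-1, 0.0% in ahg3-1 and 0.0045% between the mutants. The limits of the rule leave no room for larger differences from wild type, so the counts for ahg1-1 and ahg3-1 describe the choice. Between the mutants the rule set no limit of its own, only the looser bound that follows from both. Just inside the mutant limit stood 253722_at (0.295 in ahg3-1, number 1), 255080_at (0.295 in ahg1-1, number 1) and AT1G68250 (-0.291 in ahg1-1, number 1). Just outside stood TMT2 (0.302 in ahg3-1, number 1), AT3G54680 (0.303 in ahg1-1, number 2) and AT4G01610 (0.303 in ahg3-1, number 1). At the ABA limit EXPA4 (1.006), AT2G39020 (1.011) and AT3G61700 (1.017) were just inside, and 255707_at (0.994), 246987_at (0.992) and 253416_at (0.990) just outside.

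Of 360 ABA-raised probe sets outside the mutant limits, 47 failed by a single difference: 20 by ahg1-1 within number 1, 15 by ahg1-1 within number 2, 11 by ahg3-1 within number 1 and 1 by ahg3-1 within number 2. A further 119 failed by 2 differences, 152 by 3 and 42 by all 4. Taken by mutant, 55 of the 402 met the limits for ahg1-1 in both numbers and 98 for ahg3-1 in both. No test was made of the difference between these counts, since both share the wild-type arrays.

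Few genes of the ABA pathway could be set beside the 42. Of a list of 89 symbols of ABA synthesis, signalling and response, 4 had a named probe set, 1 met the ABA limit and 0 were among the 42. The one that met it, EEL, a bZIP factor of seeds, stood at 7.32 and 7.88 in ahg1-1, 7.38 and 7.78 in ahg3-1, 6.62 and 7.54 in wild type on ABA, and 4.61 and 5.51 in wild type without ABA. Its mutant differences were 0.70 and 0.34 in ahg1-1 and 0.76 and 0.25 in ahg3-1. AHG1 and AHG3 had 0 named probe sets, so the mutant labels could not be checked against the mutated genes.

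Markers of dry-seed embryo and of green seedling tissue were looked up beside the 42. In the mutant comparisons (limma) 0 of these markers passed, as did 0.0% of all probe sets, so that count says nothing about the markers. The marker lists were chosen with earlier results of these data known, so the directions below are descriptions. Of 10 symbols listed for the dry-seed embryo, 3 were measured (OLEO3, PAP85 and LEA18). All 3 met the ABA limit, as did 1.81% of all probe sets. They failed the mutant limits, as 2 or more of the 4 differences of each exceeded 0.3. The ahg1-1 differences lay between 0.95 and 2.32 within number 1 and between 0.30 and 0.69 within number 2. Those of ahg3-1 lay between 0.71 and 2.48 within number 1 and between 0.10 and 0.30 within number 2, all 3 inside the limits. Their levels lay between 11.64 and 12.89 in ahg1-1, 11.55 and 12.70 in ahg3-1, 9.32 and 12.60 in wild type on ABA, and 4.14 and 6.77 in wild type without ABA. Of 8 symbols for photosynthetic tissue, 4 were measured (PSAN, PRK, PSAE-1 and PSBY), and all were lower with ABA and lower in both mutants than in wild type on ABA, in both numbers. Their levels lay between 4.86 and 7.64 in ahg1-1, 5.25 and 8.38 in ahg3-1, 5.84 and 10.21 in wild type on ABA, and 10.97 and 12.79 in wild type without ABA. The seed coat marker BAN stood between 5.33 and 6.29 on the 8 arrays, the root hair markers EXPA7 and EXPA18 between 5.14 and 8.56, and 0 of 4 endosperm markers were measured. Both root hair markers changed sign with ABA between numbers, by 0.83 and -2.06 for EXPA7 and 0.72 and -2.30 for EXPA18. On the wild-type arrays with ABA, numbers 1 and 2, EXPA7 stood at 8.56 and 5.82, and EXPA18 at 8.28 and 5.14. The part of tissue makeup or stage in the levels of the 42 was not tested.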

How the data were processed

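Per the submitters' processing notes, the deposited log2 expression values were made by the authors with RMA, which corrects background, normalizes arrays and summarises probes (version: not given in the sources used here). Values covered 22246 probe sets on 8 one-colour arrays, with array medians between 5.91 and 5.97, 0 identical columns and 0 columns left unused; the number of arrays limits the precision. Groups and replicate numbers came from the titles. The description field calls all 8 arrays untreated wild type, against 6 of the titles, and was set aside.

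Members were found with pandas 2.3.3 in Python 3.11.15. Group means over all 8 arrays, unfiltered, were fitted with limma 3.58.1 under R 4.3.3 (4 residual degrees of freedom, empirical Bayes, two-sided, Benjamini-Hochberg over all probe sets, called at an adjusted p below 0.05). The fit was checked on simulated data with independent noise on each array. That check did not cover same-numbered arrays that deviate together. Errors are SEs of that fit. Names came from the platform annotation, updated through the TAIR10.1 gene table; 1 gene was listed for 13072 probe sets, several for 503 and none for 8671.

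The members and lists were chosen with earlier results of these data known. The rule for named genes took the 12 largest ABA differences, the 8 smallest mutant differences, the ABA list and keyword groups. Keywords were matched to symbols and synonyms: 2 of the 22 genes, APA1 and scpl35, matched 1 (proteolysis), as did 0.666% of all. The other 7 named genes, the unnamed probe sets and the gene families were given after their values were seen. Promoter motifs were not analysed here. Alternatives were a replicate block, cyclic loess, a filter on probe sets averaging under 5, fits of 2 groups, fits without 1 array and other limits for the rule.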

Additional observations from a re-analysis of the deposited data

How the results depend on the processing

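The number of probe sets that met the rule was set by its limits: 42 became 15 with mutant limits of 0.2 and 70 with 0.4, and 85 with an ABA limit of 0.8 and 14 with 1.5. It was 173 when differences of group means took the place of same-numbered differences, and 10 when numbers were crossed (number 1 of 1 group against number 2 of the other), 9 of them among the 42. After cyclic loess 38 met the rule, 25 of them among the 42. The count of members called with ABA, 15, was 42 under a replicate block, 9 after cyclic loess, 2 when only the 2 wild-type groups were fitted, and 3 to 7 in the 8 fits without 1 array; it was 15 without dim probe sets. Of all probe sets in those fits 6.1%, 0.589%, 0.144%, 0.157% to 0.692% and 1.02%, in that order, were called higher, against 0.692% in the fit reported. Same-numbered arrays deviated together, with r between 0.50 and 0.84 in 6 pairs of groups, but nothing in the labels says that a number marks a shared batch. The counts of members called in ahg1-1, ahg3-1 and between the mutants were 0 in each alternative, the block included, where 1 member had an unadjusted p under 0.05 between the mutants. With the block the 95% interval of a mutant difference extended 0.39 to either side at the median, and 0 of 42 intervals lay within 0.3 in either mutant. The median ABA difference of the members stayed between 1.39 (cyclic loess) and 1.68. The ABA differences of the 22 named genes lay between 0.81 and 3.72 in all 198 alternative fits of single genes; with the block 16 of them newly passed the test. The promoter motif alternatives were not run, and no test for a stray array was made. At 2 arrays a group, mutant differences from wild type of the size the rule allows were not detectable, with or without the block.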
